A study of Saccharomyces cerevisiae with 4 samples.

Results

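The genes described here encode proteins of the large subunit of the mitochondrial ribosome of the yeast Saccharomyces cerevisiae, and they were taken as the genes whose symbol is MRPL followed by a number. The platform annotation gave 35 probe sets that name 1 such symbol alone, for 34 genes out of 5656 genes named in this way. MRPL44 had 2 probe sets and the others 1, and the brightest probe set stood for each gene. All 34 lay above the intensity floor of 18.5 on every array, so none was lost to the filter on low values. The strain was ATCC 4126, grown in YP medium with galactose (2 RNA samples, galactose B and galactose C) or with glucose (2 RNA samples, glucose A and glucose B), and the total RNA came from cells at an OD600 of 1.0. Each sample was measured on 1 Affymetrix yeast array, and nothing but the sugar is given as differing between the media.

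The mitochondrial ribosome makes a few very hydrophobic proteins encoded in mitochondrial DNA, mostly core subunits of the respiratory complexes and of the ATP synthase. Its ribosomal RNAs come from mitochondrial DNA, while nearly all of its proteins are encoded in the nucleus, made in the cytosol and imported. In Saccharomyces cerevisiae, glucose is known to repress respiratory genes strongly, and galactose represses them less. In the uniform naming of ribosomal proteins, a prefix u or b marks a protein with a bacterial counterpart, and the prefix m marks one found only in mitochondria.

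The letters B, C, A and B come from the labels, which do not say whether separate cultures lie behind them. The p-values therefore rest on the spread between arrays of the same medium, moderated by the spread over all tested probe sets. That spread between arrays may be technical. The median intensity of the 4 arrays lay between 108 and 117. The galactokinase gene GAL1 stood at 9927 and 8965 on the galactose arrays, against 36.2 and 40.4 on the glucose arrays, as the labels say. Between the galactose arrays 11.4% of 9275 probe sets differed 2-fold or more, and between the glucose arrays 3.65%. As these are bulk RNA samples, fewer cells that carry a transcript and less of it per cell cannot be told apart.

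The MRPL genes stood lower in galactose as a group. All 34 had a lower mean log2 intensity in galactose, where 53.2% of 5403 tested genes did, and the median difference was -0.60 on the log2 scale (1.51-fold lower), against -0.03 over all tested genes. In 26 of the 34 the galactose pair lay wholly below the glucose pair, against 23.4% of all tested genes, and in 0 it lay wholly above. No single gene passed the test: 0 of 34 were called at an adjusted p under 0.05 (limma, Benjamini-Hochberg over all probe sets), where 0.0411% of 7302 probe sets were called lower and 0.794% higher. At an unadjusted p under 0.05, 3 of 34 were lower, against 3.98% of all tested genes, and 0 were higher, against 2.48%. The adjusted p-values ran from 0.383 to 0.852 and the standard errors from 0.21 to 0.52 on the log2 scale. The difference between the media was carried mostly by galactose B, and without that array the median difference was -0.27, while without galactose C it was -0.93.

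**Figure D1:**
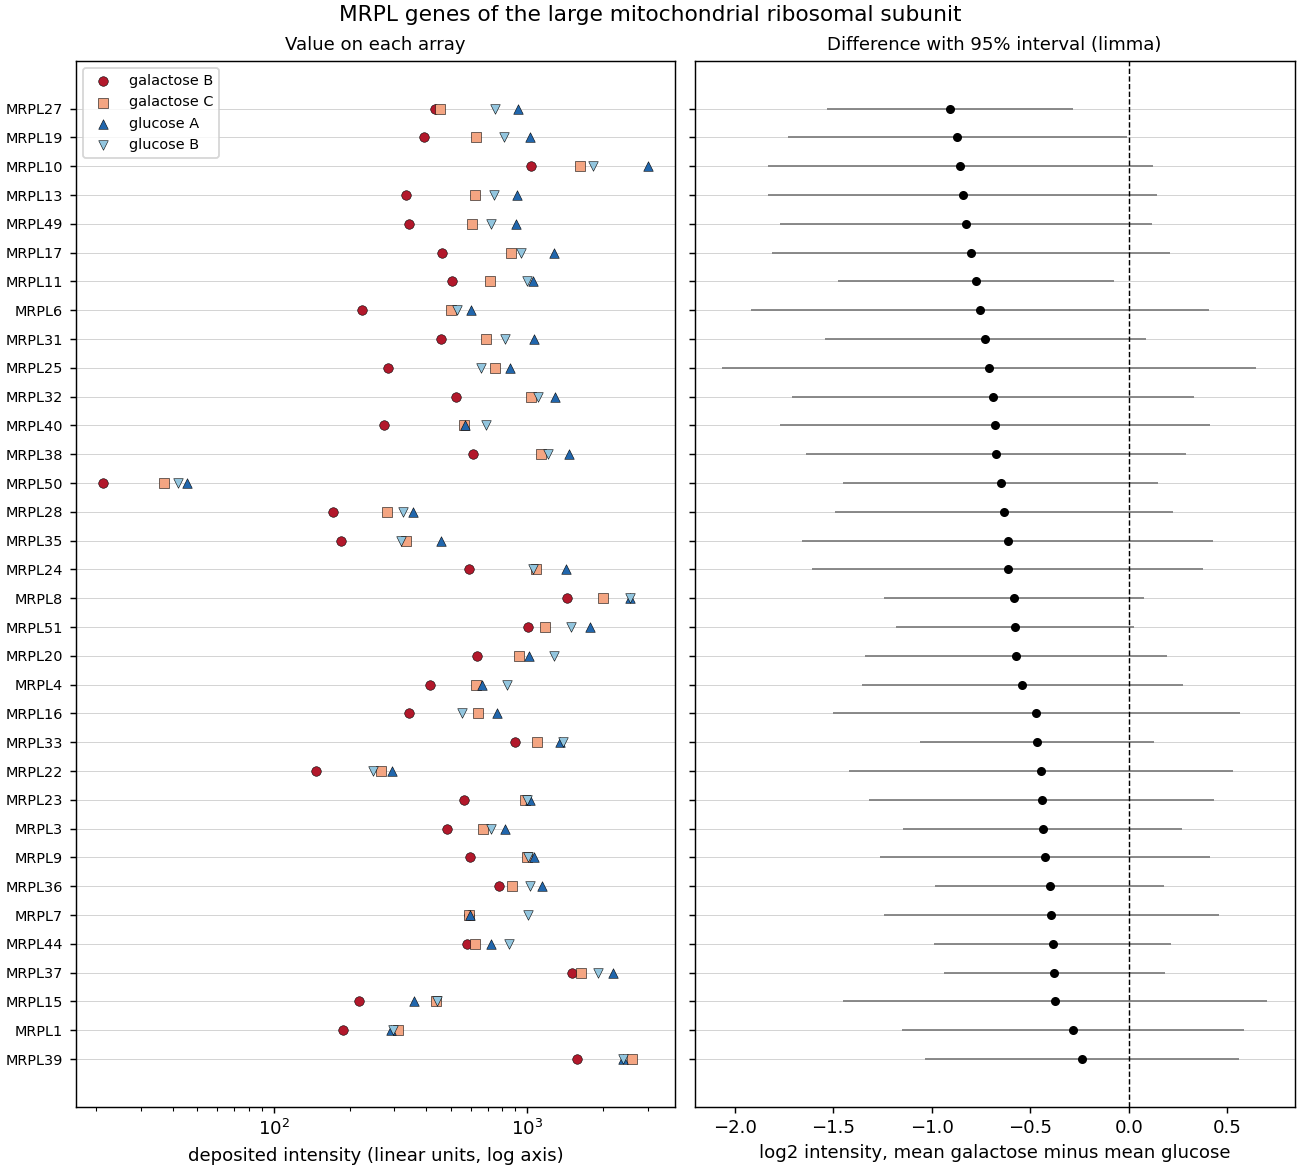
Left, the deposited intensity of each MRPL gene (log axis) on each of the 4 arrays. Right, the difference of mean log2 intensity, galactose minus glucose, with its 95% interval from limma, the genes running from MRPL27 (-0.91) at the top to MRPL39 (-0.24) at the bottom. Galactose B is the leftmost point for all 34 genes, and 3 of the intervals lie wholly below 0.

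Proteins of the stalks, the mobile arms by which a ribosome handles tRNAs and translation factors, included some of the lowest ratios and one of the highest. MRPL19 (YNL185C, uL11m), which sits at the base of the factor-binding stalk, stood at 392 and 632 on galactose B and C, against 1024 and 809 on glucose A and B. Both galactose values were below both glucose values, a 1.83-fold lower mean (log2 -0.87 ± 0.33 SE, adjusted p = 0.579). MRPL11 (YDL202W, uL10m), the protein that carries the stalk, stood at 505 and 715 in galactose, against 1053 and 1002 in glucose. Its galactose values were again apart from glucose, 1.71-fold lower with an interval of -1.47 to -0.07 (adjusted p = 0.542). MRPL1 (YDR116C, uL1m), of the opposite stalk near the tRNA exit, stood at 188 and 309.6 in galactose, against 289.8 and 296 in glucose. Here galactose C was the highest of the 4 arrays, and the difference of -0.28 had an interval of -1.15 to 0.59 (adjusted p = 0.837).

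Members with bacterial counterparts elsewhere in the subunit covered the same range. MRPL10 (YNL284C, uL15m) stood at 1038 and 1625 in galactose, against 3010.0 and 1830.1 in glucose. The groups did not overlap, although the glucose arrays differed by 0.72 on the log2 scale (1.81-fold lower in galactose, log2 -0.85 ± 0.37 SE, adjusted p = 0.592). MRPL49 (YJL096W, bL21m) had 342 and 608 on the galactose arrays and 902 and 724 on the glucose arrays, 1.77-fold lower (log2 -0.83 ± 0.36 SE, adjusted p = 0.592). MRPL6 (YHR147C, uL6m) showed 223 on galactose B and 501 on galactose C, against 599.8 and 531 in glucose. Galactose C lay just under glucose B, so that most of the 1.69-fold difference came from galactose B (log2 -0.76 ± 0.44 SE, adjusted p = 0.696). MRPL8 (YJL063C, bL17m) was nearly equal on the glucose arrays, with 1440.0 and 1999.9 in galactose against 2543 and 2543 in glucose (log2 -0.58 ± 0.25 SE, adjusted p = 0.592).

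At the exit of the peptide tunnel the new chain leaves the ribosome next to the inner membrane. Proteins there include those encoded by MRPL22 (uL22m), MRPL40 (uL24m) and MRPL4 (uL29m). MRPL40 stood at 273 and 565 in galactose, against 570.1 and 692 in glucose, galactose C lying almost level with glucose A. MRPL4 had 416 and 632 in galactose, against 663 and 838 in glucose. MRPL22 had 147 and 265 in galactose, against 293 and 247 in glucose, so its groups overlapped. Their log2 differences were -0.68, -0.54 and -0.45, with standard errors of 0.42, 0.31 and 0.37. MRPL32 (bL32m), known as a protein that the m-AAA protease must process before the ribosome can be assembled, stood at 525 and 1042 in galactose, against 1290.1 and 1103 in glucose (1.61-fold lower, adjusted p = 0.681).

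The smallest difference was that of MRPL39 (YML009C, bL33m). It stood at 1583 on galactose B and 2596 on galactose C, against 2386 and 2391 in glucose. The galactose arrays lay on either side of the glucose pair, and the difference of -0.24 had an interval of -1.04 to 0.56 (adjusted p = 0.852).

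Genes for mitochondria-specific proteins included the lowest ratio of all. MRPL27 (YBR282W, mL41) stood at 432 and 456 in galactose, against 922 and 749 in glucose. Both galactose arrays were low to nearly the same degree, and the mean was 1.87-fold lower (log2 -0.91 ± 0.24 SE, interval -1.53 to -0.28, adjusted p = 0.383). MRPL13 (YKR006C, mL50) had 335 and 626 in galactose, against 910.5 and 738 in glucose (1.79-fold lower, log2 -0.84 ± 0.38 SE). MRPL17 (YNL252C, mL46) had 462 and 862 in galactose, against 1276 and 947 in glucose (1.74-fold lower, log2 -0.80 ± 0.39 SE). In both genes galactose B was far below the other arrays and galactose C was closer to glucose B than to galactose B.

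MRPL37 (YBR268W, mL54) stood at 1503 and 1641 in galactose, against 2183 and 1909 in glucose, a small difference that separated the media (1.30-fold lower, log2 -0.38 ± 0.21 SE, adjusted p = 0.681). MRPL15 (YLR312W-A, mL57) had 217 and 437 in galactose, against 359.6 and 442 in glucose, with galactose C between the glucose arrays (log2 -0.37 ± 0.41 SE). Its probe set is the only one of the 34 whose name ends in _s_at, a suffix used for probe sets that can read more than one transcript.

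The 21 genes with bacterial counterparts and the 13 mitochondria-specific genes had similar values. The median difference was -0.58 for the bacterial type and -0.62 for the mitochondria-specific type, and the galactose pair was wholly below the glucose pair at 16 of 21 and 10 of 13, against 23.4% of all tested genes. Split by signal strength, the median was -0.58 among the brighter 17 and -0.63 among the dimmer 17, and the media were apart at 15 of the brighter and 11 of the dimmer genes. Across the 34 genes, which share the same 4 arrays, the difference had a Spearman correlation of 0.12 with mean log2 intensity and of 0.01 with gene length. Mean log2 intensity had a Spearman correlation of 0.32 with the shift of galactose B from the glucose mean and of -0.31 with that of galactose C, opposite signs that offset each other in the difference between the media. The dimmest member, MRPL50 (bL9m), stood at 21.2 and 36.8 in galactose, against 45.7 and 42.0 in glucose, at a level near the floor. MRPL44 (mL53) was read by 2 probe sets of different brightness, one at 579 and 623 in galactose against 723 and 852 in glucose, the other at 118 and 130.5 against 147 and 179. The log2 difference was -0.39 on each.

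The 2 galactose arrays carried unequal shares of the difference. Set against the mean of the glucose arrays, galactose B had a median shift of -0.93 over the 34 genes (1.91-fold lower) and galactose C one of -0.27 (1.20-fold lower), where all tested genes had -0.06 and -0.02. These shifts share the glucose arrays. On galactose B all 34 genes lay below both glucose arrays, against 40.8% of all tested genes. The shifts on galactose B ran from -1.41 to -0.40 over the 34 genes. Galactose C was below both glucose arrays at 26 genes, against 41.6% of all tested genes, between them at 6 and above both at 2. Its shifts ran from -0.87 to 0.13. Galactose B was the lowest of the 4 arrays at all 34 genes, against 25% of all tested genes.

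The direct difference between the galactose arrays had a larger median than that between the media. Galactose C was above galactose B at all 34 genes, against 2647 of 5403 tested genes. The median was 0.72 on the log2 scale, with a range of 0.01 (MRPL7) to 1.40 (MRPL25), where the median of all tested genes was -0.01. Glucose B was below glucose A at 24 of 34, with a median of -0.18 and a range of -0.72 (MRPL10) to 0.75 (MRPL7). Over all tested genes 43.4% were below, with a median of 0.05, so the MRPL genes also leaned to one side between arrays of the same medium. Galactose C minus glucose B had a median of -0.20, close to the one between the glucose arrays, with 27 of 34 genes lower. Galactose C minus glucose A had a larger median of -0.31, with 31 of 34 lower. Among all tested genes 53.0% and 50.9% were lower in these 2 pairs. Galactose B minus glucose B had a median of -0.83 and galactose B minus glucose A one of -1.05. At least 2-fold lower were 11 genes in the first and 18 in the second. Of 9275 probe sets, tested or not, 5.25% and 7.88% differed 2-fold or more in these pairs. These were counted in either direction and without the floor, so they are not a matching share for the gene counts.

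**Figure D2:**
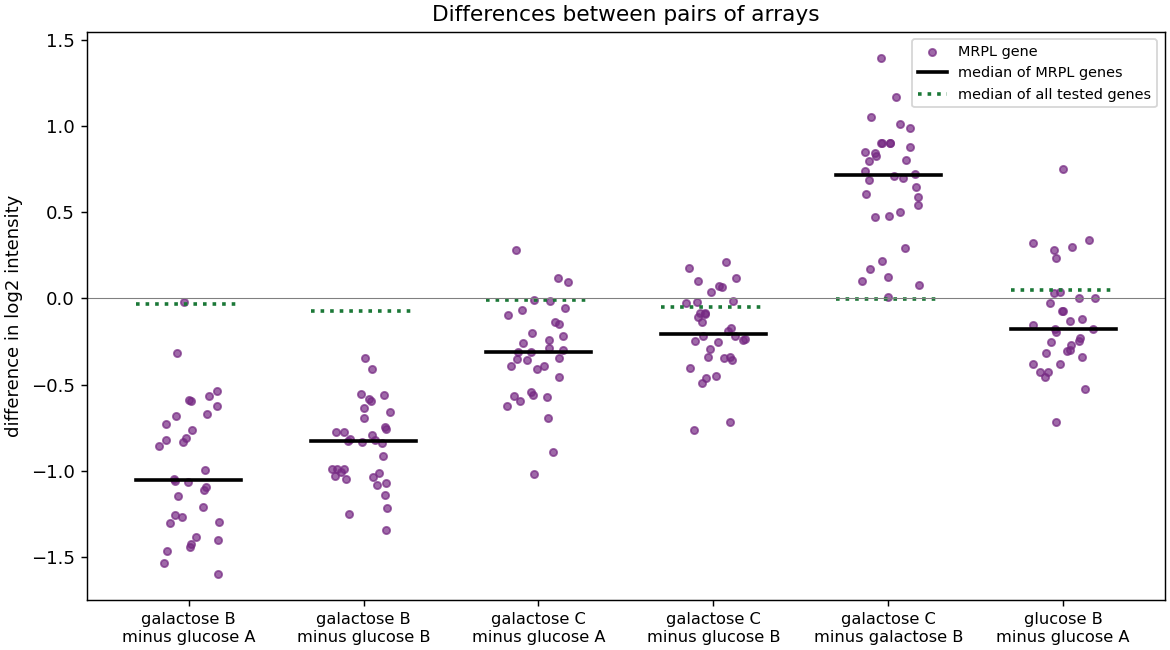
Difference in log2 intensity between each pair of arrays for the 34 MRPL genes (points), with their median (black line) and the median of all tested genes (dotted line). The points lie lowest where galactose B is set against a glucose array, at medians of -1.05 and -0.83, and highest where galactose C is set against galactose B, at 0.72.

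The gap between the galactose arrays was not the same at every gene. At 6 genes (MRPL7, MRPL27, MRPL36, MRPL37, MRPL44 and MRPL51), picked after their values were seen, the galactose arrays were within 0.25 of each other on the log2 scale. MRPL51 (mL43) was one of them, at 1011 and 1175 in galactose against 1773 and 1488 in glucose. MRPL7 (uL5m) was another, at 589 and 593 in galactose, but its glucose arrays stood at 598 and 1008, so the difference rested on glucose B. At the other end, galactose C was within 0.1 of the glucose mean, or above it, at 8 genes. Among these MRPL25 (mL59) had the widest spread, at 284 on galactose B and 748 on galactose C, against 860.0 and 661 in glucose.

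The genes next to the MRPL genes were spread around a smaller difference. Of 65 tested protein-coding neighbours in the RefSeq gene table of assembly R64, none of them an MRPL gene, 41 were lower and 24 higher in galactose, with a median of -0.08. Over all tested genes 53.2% were lower, with a median of -0.03. MRX14 beside MRPL1, at -0.39, is itself a large-subunit gene with another name and was counted among the 65. Of the 65 neighbours, 18 are divergent, which share an upstream region with the MRPL gene, and 9 were lower and 9 higher (median -0.01). They included the lowest neighbour, IMP3 beside MRPL6, at -1.48 (adjusted p = 0.419), a gene for cytosolic small-subunit processing that is named here after its value was seen. MRPL19 overlaps the reading frame YNL184C in that table, and this frame stood at -0.84 (adjusted p = 0.548), close to MRPL19, so their signals may not be separate. MRPL51 overlaps YPR099C on the opposite strand there, a frame with no tested probe set of its own.

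The rest of the mitochondrial ribosome showed the same order of arrays. The 12 large-subunit genes with other names were all lower in galactose, with 6 of them apart between the media (23.4% of all tested genes were), a median difference of -0.47, and shifts of -0.82 (galactose B) and -0.13 (galactose C). MNP1 (bL12m), which forms the tip of the factor-binding stalk, stood at 515 and 968 in galactose, against 1379 and 1181 in glucose (log2 -0.85, adjusted p = 0.592). MRP7 (bL27m), which reaches towards the peptidyl transferase centre, stood at 182 and 195 in galactose, against 282 and 399.6 in glucose (log2 -0.83, adjusted p = 0.542). RTC6 (bL36m), at 250.5 and 451 in galactose against 436 and 326 in glucose, had the smallest difference of these (log2 -0.17). The 32 small-subunit genes were all lower too, where 53.2% of all tested genes were, with a median of -0.54 and array medians of -0.82 (galactose B) and -0.28 (galactose C). The media were apart at 23 of them, against 23.4% of all tested genes, and 7 were lower at an unadjusted p under 0.05, against 3.98%. MRPS28, a small-subunit protein gene, stood at 225 and 360.5 in galactose, against 680.1 and 475 in glucose, the largest difference of that list (log2 -0.99, adjusted p = 0.555). Whether the subunits differ was not tested.

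The proteins of the cytosolic large subunit, a separate ribosome, had the galactose arrays in the opposite order. Over 42 RPL genes that could be told apart by name, galactose B had a median shift of -0.11 and galactose C one of -0.63, and 38 were lowest on galactose C, against 33.7% of all tested genes, while 0 were lowest on galactose B, against 25%. The median over both was -0.37, with 39 of 42 lower, where 53.2% of all tested genes were. In 22 the galactose pair lay wholly below the glucose pair, against 23.4% of all tested genes, and 5 were lower at an unadjusted p under 0.05, against 3.98%. RPL7B had the largest difference, at 1399 and 609 in galactose against 2750.3 and 5337 in glucose (log2 -2.05, adjusted p = 0.383), and since RPL7A is a close copy of it the split of signal between them is uncertain. The 30 nuclear genes of the respiratory chain and the ATP synthase had median shifts of -0.27 (galactose B) and 0.21 (galactose C). Of these, 17 were lower and 13 higher, near the share over all tested genes. Galactose C lay above galactose B at all 30 of them, by a median of 0.49, against 2647 of 5403 tested genes and a median of -0.01. In 0 of them the galactose pair lay wholly below the glucose pair, against 23.4% of all tested genes, and in 2 it lay wholly above, against 15%. COX5A, a subunit of cytochrome c oxidase, had the lowest difference among them, at 1878 and 2772 in galactose against 4227 and 2660.3 in glucose (log2 -0.56, adjusted p = 0.718).

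**Figure D3:**
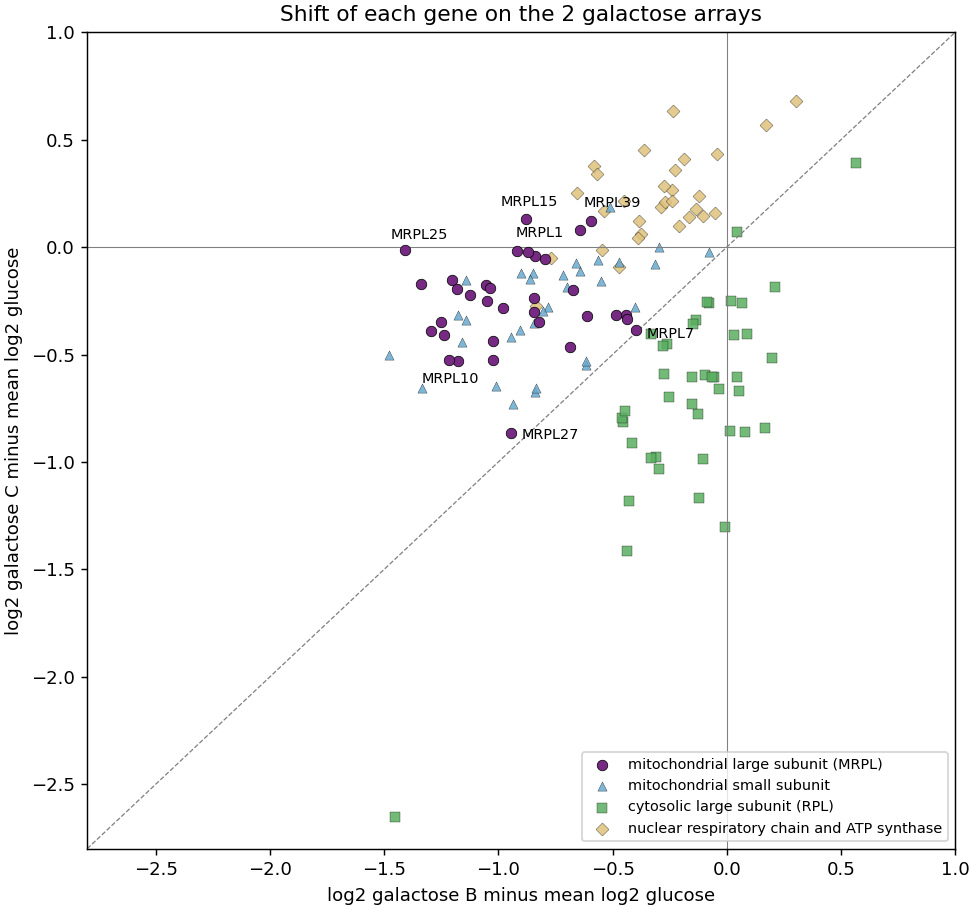
Each point is a gene, placed by its log2 intensity minus the glucose mean on galactose B (horizontal) and galactose C (vertical), and both axes share the glucose arrays. The MRPL genes (purple) lie between -1.41 and -0.40 on galactose B and between -0.87 and 0.13 on galactose C, all 34 above the dashed line of equality, and 41 of the 42 cytosolic RPL genes (green) lie below that line.

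Other components of mitochondrial translation were mixed in the difference between the media, but most had galactose C above galactose B. This held at 7 of 8 assembly genes, 8 of 8 translation factor genes and 10 of 10 processing and anchoring genes. It held at 9 of 15 translational activators. Among all tested genes it held at 2647 of 5403, and the activators lay nearer that share than the other lists named here. The translation factor genes had median shifts of -0.86 (galactose B) and -0.10 (galactose C). Of 8 assembly and RNA modification genes, 5 were lower and 3 higher, with a median of -0.22. Over all tested genes 53.2% were lower, a share near 5 of 8. MSS116, an RNA helicase of mitochondria, stood at 571 and 809 in galactose, against 1539 and 1274 in glucose (log2 -1.04, adjusted p = 0.387), and MRH4, a helicase needed to assemble the large subunit, at 64.3 and 71.3 against 108 and 126 (log2 -0.79, adjusted p = 0.476). MAM33, the brightest gene of that list and known from its role in assembly of the large subunit, stood at 872 and 1924 in galactose, against 2607 and 1954 in glucose (log2 -0.80, adjusted p = 0.674). Its galactose C value lay just under glucose B. MRM2, which methylates the large ribosomal RNA, stood at 114 and 139.8 in galactose, against 111 and 82.5 in glucose (log2 0.40). Of 8 translation factor genes, 7 were lower (median -0.41), against the same 53.2% of all tested genes. FMT1, the other listed gene, lay under the floor on every array and was not tested. The elongation factor gene MEF1 stood at 448 and 862 in galactose, against 1277 and 1000.2 in glucose (log2 -0.86, adjusted p = 0.608), while TUF1, the other main elongation factor, had 1497 and 2382 in galactose, against 1623 and 2320.2 in glucose (log2 -0.04).

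The 15 translational activator genes had a median of -0.20, with 13 lower, where 53.2% of all tested genes were. PET309, an activator for COX1, stood at 96.5 and 79.4 in galactose, against 131 and 152 in glucose (log2 -0.69, adjusted p = 0.579). The 10 genes for import processing and membrane anchoring had a median of -0.24, with 10 lower, against the same 53.2% of all tested genes. MAS1, a subunit of the peptidase that removes import signals, stood at 500.2 and 791 in galactose, against 1046 and 898 in glucose (log2 -0.62, adjusted p = 0.633). YTA12, a subunit of the m-AAA protease that processes the MRPL32 protein, stood at 1509 and 1610 in galactose, against 1674 and 1734 in glucose (log2 -0.13). The 7 genes for mitochondrial DNA transcription and maintenance had a median of -0.12. MIP1, the mitochondrial DNA polymerase gene, stood higher, at 326 and 332 in galactose against 252 and 258 in glucose (log2 0.37, adjusted p = 0.728). Of 5 regulators, PUF3, which encodes an RNA-binding protein known to bind messenger RNAs of mitochondrial ribosomal proteins, stood at 171 and 253 in galactose, against 279 and 264 in glucose (log2 -0.38, adjusted p = 0.766). HAP4, the activating subunit of the regulator of respiratory genes, had 1251 and 2229 in galactose, against 2067 and 1680 in glucose (log2 -0.16). None of the genes in these lists passed an adjusted p of 0.05 (limma).

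Transcripts encoded in mitochondrial DNA, which this ribosome reads, stood on the other side. Of 8 tested genes, 7 were above the floor on every array, while ATP8 was above it on galactose C alone, at 15.9 and 29.9 in galactose against 16.5 and 15.3 in glucose, so that the filter fixed the direction of ATP8. The other 7 all had a higher mean in galactose, where 2528 of 5403 tested genes did. In 5 of them the galactose pair lay wholly above the glucose pair, against 15% of all tested genes. At an unadjusted p under 0.05 (limma) 2 were higher, against 2.48%. Over these 7 the median shifts were 0.62 (galactose B) and 0.44 (galactose C), and over all 8 they were 0.48 and 0.46. The genes differed among themselves in which galactose array was higher, galactose C lying above galactose B at 4 of the 7 and below it at 3. COX3, for a subunit of cytochrome c oxidase, had the widest gap of the 7, at 384 and 227 in galactose against 259 and 169 in glucose (log2 0.50, adjusted p = 0.766). ATP6, for a subunit of the ATP synthase, stood at 87.5 and 70.3 in galactose, against 46.8 and 57.4 in glucose (log2 0.60, adjusted p = 0.591). COB, for cytochrome b, stood at 306 and 338 in galactose, against 211 and 161 in glucose (log2 0.80 ± 0.27 SE, adjusted p = 0.533). COX2 had 42.1 and 49.9 in galactose, against 24.7 and 30.4 in glucose, at a level near the floor (log2 0.74, adjusted p = 0.397). COX1 had 11775 and 13192 in galactose, against 9415 and 9477 in glucose (log2 0.40, adjusted p = 0.633). OLI1, for another subunit of the ATP synthase, overlapped between the media, with 8293 and 9121 in galactose against 8839 and 7082 in glucose. Mitochondrial messages of yeast lack stable poly(A) tails, and the priming used for labelling is not stated in the labels.

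**Figure D4:**
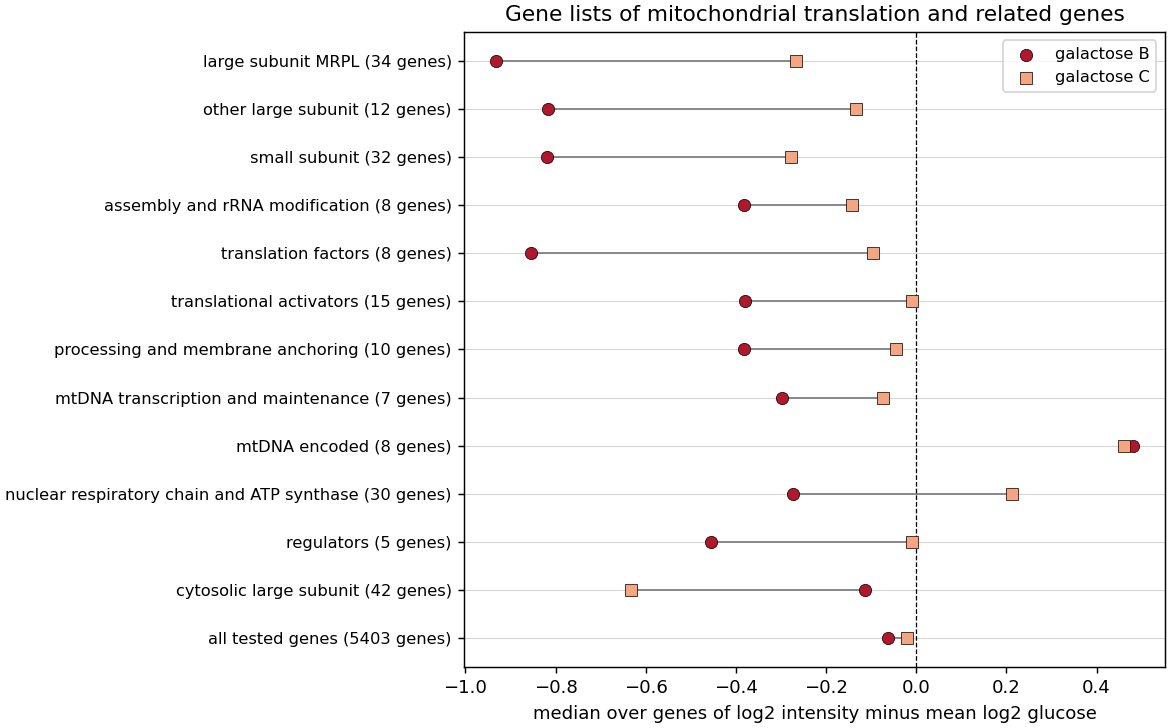
Median over the genes of each list of log2 intensity minus the glucose mean, on galactose B (circle) and galactose C (square), with the number of tested genes in parentheses. The MRPL genes lie at -0.93 and -0.27, the small subunit at -0.82 and -0.28, the cytosolic large subunit at -0.11 and -0.63, and the 8 genes encoded in mitochondrial DNA, ATP8 included, at 0.48 and 0.46.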

How the data were processed

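Each deposited value is the intensity of a probe set on an array, on a linear scale, as the authors summarised it; their software, background treatment and scaling are unstated in the labels. Because the array medians differed by a factor of 1.08, under 1.1, they were not scaled further. After 60 array controls were left out, 9275 probe sets remained; the platform annotation gave 1 symbol for 6504, several for 328 and none for 2443. Systematic names came from the RefSeq gene table of assembly R64, matched by gene number. Since the values name no genome build, coordinates were left out. Values under the 25th percentile (18.5) were raised to it before taking log2; 7302 probe sets above it on at least 1 array were tested with limma 3.58.1 in R 4.3.3 (lmFit, eBayes with an intensity trend, 2 residual and 4.73 total degrees of freedom), adjusted by Benjamini-Hochberg over all of them at 0.05. Single-gene values use the brightest probe set of each of 5403 tested genes. Standard errors and 95% intervals are limma's, and the number of arrays limits their precision.

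Medians, counts and shifts of lists carry no test. With 4 arrays, which split into pairs in 3 ways, no exact permutation test could reach 0.05. The members and lists were chosen with earlier results of these data known. Any MRPL gene could be named; values on every array were given for the 8 lowest and 4 highest differences and the 4 brightest, and, from each of the 11 other lists, for the gene with the largest difference. The rule also allowed the 4 largest differences and the 2 brightest of each list; of these not all were printed, and which were, like the other genes named, was chosen after their values were seen. Promoter and protein sequences were not used here. Alternatives to these steps were each array left out, quantile normalization, arrays shifted to one median, a floor at the 10th or 40th percentile or none, a filter for values over the floor on every array, averaging the probe sets of a gene, eBayes without trend or robust, adjustment over 1 probe set per gene, and a threshold of 0.10. Tables and figures were made in Python 3.11.15 (pandas 2.3.3, matplotlib 3.10.9).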

Additional observations from a re-analysis of the deposited data

How the results depend on the processing

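With 2 arrays per medium and unequal galactose arrays, single genes could not be separated from the spread. No paired analysis was possible because the media share only the letter B. Under quantile normalization, the 2 other floors, no floor, the stricter filter and the mean over probe sets, every MRPL gene tested kept a negative difference, with a median between -0.60 and -0.57, and 0 passed the adjusted threshold in any setting (limma). With the floor at the 40th percentile MRPL50 was not tested. After a shift to a common median, 1 gene was lower at an unadjusted p under 0.05, against 3 with unscaled values, and 19 were apart between the media, against 26; among all genes tested in that setting the shares were 4.63% and 23.7%. Leaving out each array in turn gave between 0 and 20 genes lower at an unadjusted p under 0.05: 1 without galactose B, 20 without galactose C, 0 without glucose A and 1 without glucose B, where the shares over all tested genes were 10.1%, 3.59%, 0.833% and 1.02%. The median difference ran from -0.93 (without galactose C) to -0.27 (without galactose B), the genes apart from 26 (without galactose B, against 41.6% of all tested genes) to 34 (without galactose C, against 40.8%), with 27 without glucose A (39.6%) and 31 without glucose B (32.6%), the shift on galactose B from -1.05 to -0.83 and that on galactose C from -0.31 to -0.20. Without galactose B, 3 genes turned higher in galactose, and their differences over the 4 omissions ran from -0.64 to 0.0796 for MRPL1, from -0.88 to 0.13 for MRPL15 and from -0.59 to 0.12 for MRPL39; galactose C alone then stood for its medium.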
